A study of Mus musculus with 6 samples.

Results

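Imprinted genes are genes of which mainly the maternal or mainly the paternal copy is expressed. A list of 44 mouse imprinted genes was followed in control KD and *Yy1* KD morulae. They were found among the 55364 genes of the deposited table by symbol (43 genes) or, for *Nespas*, which the table lists as *Gnasas1*, by its identifier (1 gene). RNA-seq had been performed on 3 control KD and 3 *Yy1* KD libraries, each from a pool of 10 morulae collected 64 h after insemination. All embryos came from BDF1 eggs and BDF1 sperm (BDF1 x BDF1, where BDF1 is the cross of C57BL/6N and DBA/2), had been injected as zygotes with a control siRNA or an siRNA against *Yy1*, and were cultured in KSOM medium. Both parents carried both strain genomes, and a value per gene sums both copies, so the parental origin of the reads was not measured.

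Imprinting is set in the germ line. At most imprinted clusters, a control region carries DNA methylation on one parental copy, and this mark is kept through the wave of demethylation after fertilization by zinc finger proteins such as ZFP57 and ZFP445 together with TRIM28. In early embryos and in the placenta, a second group of genes is silenced on the maternal copy by trimethylation of histone H3 at lysine 27 (H3K27me3) inherited from the oocyte. YY1 is a zinc finger transcription factor whose binding sites have been described in the control regions of *Peg3*, *Gnas* and other imprinted loci. In the account that follows, the parental copy, cluster and mark of each gene are general knowledge of mouse imprinting. They were not measured in these embryos.

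Of the 44 genes, 30 are paternally expressed, 13 are maternally expressed, and *Gnas* gives transcripts of either kind. By mark, 38 belong to clusters controlled by DNA methylation and 6 (*Sfmbt2*, *Slc38a4*, *Jade1*, *Gab1*, *Smoc1* and *Zfp64*) are imprinted through maternal H3K27me3. Levels were deposited as TPM, in which the read pairs on a gene are divided by its exon length and scaled to a sum of 1000000 in each library. Read pairs recovered from TPM and exon length gave 11793509 to 24417789 pairs on genes per library. The level of *Yy1* itself was 96.0, 100.2 and 89.8 TPM in control KD and 8.73, 8.90 and 8.32 TPM in *Yy1* KD libraries, 9.07% of the control mean. Lineage markers fixed for the morula, such as *Pou5f1*, *Nanog* and *Cdx2*, were all detected, with a summed level of 1744 to 2076 TPM in control KD and 1479 to 1715 TPM in *Yy1* KD libraries. Of 8 cumulus and granulosa cell markers, *Fshr*, *Has2*, *Ptx3* and *Cyp19a1* were at 0 in all libraries, and the summed level of the list was 0.610 to 1.06 TPM in control KD and 0.822 to 2.42 TPM in *Yy1* KD libraries. The 4 sperm markers summed to at most 2.26 TPM and the 6 blood and fibroblast markers to at most 4.24 TPM in any library. Oocyte markers were present, and their 6 genes summed to 47.6 to 63.6 TPM in control KD and 51.5 to 66.6 TPM in *Yy1* KD libraries. Of these 6, 0 were called at an adjusted p under 0.05 in limma, against 6.11% of all genes tested.

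Most imprinted genes were expressed at low levels in morulae. The mean over the 6 libraries was at least 10 TPM for 10 genes, from 1 to 10 TPM for 19 genes and under 1 TPM for 13 genes. *Slc22a18* and *Magel2* were listed at 0 in every library. *Igf2r*, which encodes the receptor that clears the growth factor IGF2, had the highest mean (189 TPM), followed by *Snrpn*, which encodes the splicing protein SmN (148 TPM), and *Gab1*, a docking protein of receptor tyrosine kinases (47.4 TPM). A gene was tested where 3 or more of the 6 libraries reached 1 TPM, and 29 of the 44 did. The 15 genes not tested were *H19*, *Airn*, *Phlda2*, *Slc22a18*, *Zim1*, *Dlk1*, *Meg3*, *Rian*, *Nnat*, *Ndn*, *Magel2*, *Peg13*, *Plagl1*, *Rasgrf1* and *Nap1l5*. A gene low in *Yy1* KD alone could still enter through the control libraries, and the reverse.

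Differences were tested with limma on log2(TPM + 1) over 17353 genes, with two-sided p-values corrected after Benjamini and Hochberg. Genes with an adjusted p under 0.05 were called. SE is the standard error of a log2 fold change, which is *Yy1* KD minus control KD throughout. Among the imprinted genes, *Sfmbt2*, *Slc38a4*, *Jade1* and *Peg3* were downregulated and *Cdkn1c* was upregulated in *Yy1* KD morulae. These are 4 of 29 genes downregulated (13.8%), against 4.2% of all genes tested, and 1 of 29 upregulated (3.45%), against 1.92% of all genes tested. In either direction 17.2% of the imprinted genes were called, against 6.11% of all genes. The 3 control KD values lay apart from the 3 *Yy1* KD values in 15 of the 29 genes (51.7%, 11 lower and 4 higher in *Yy1* KD), against 30.1% of all genes tested. The median log2 fold change was -0.19 over the imprinted genes tested and -0.02 over all genes tested. The list was not tested as a set. In libraries made from whole embryos, fewer cells that express a gene and less RNA per cell cannot be told apart.

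**Figure D1:**
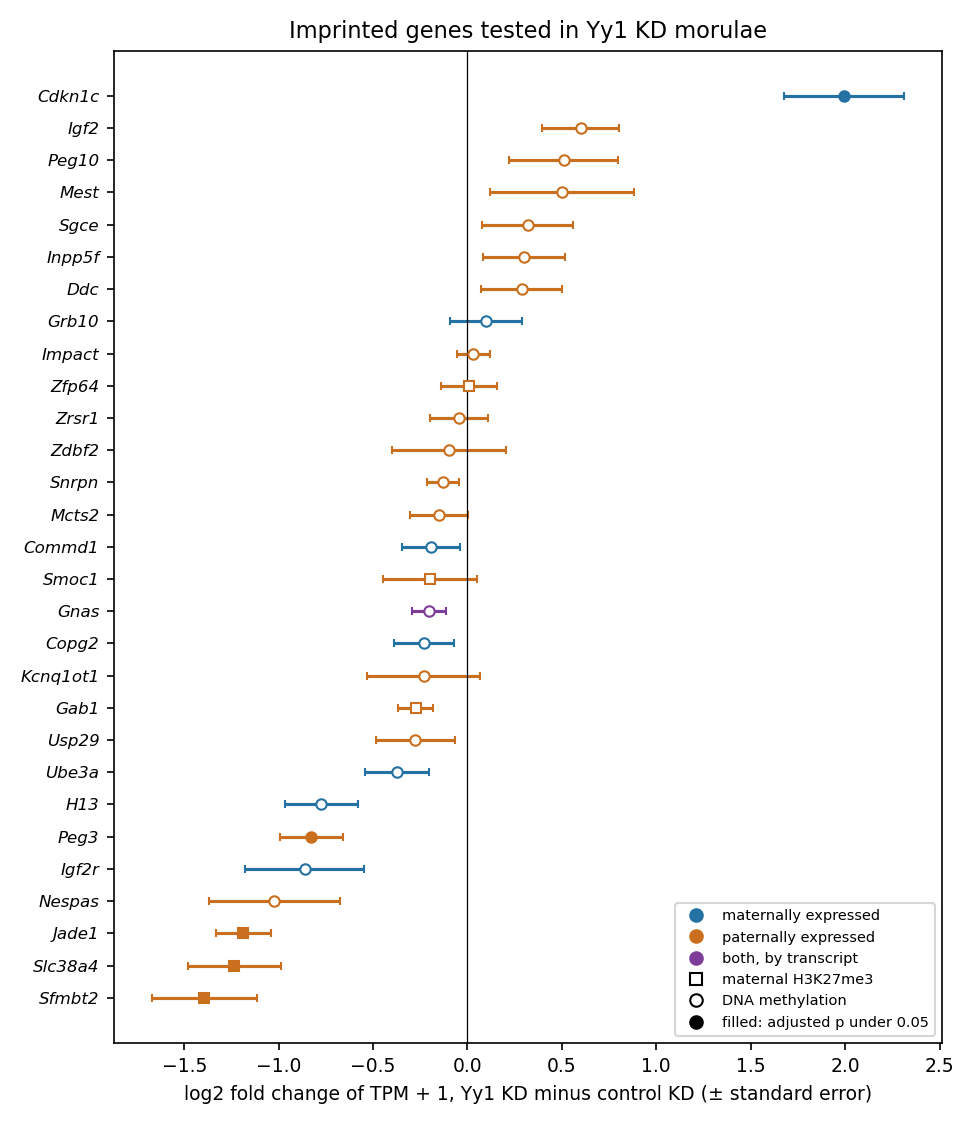
Log2 fold change of TPM + 1 (*Yy1* KD minus control KD, limma) with its standard error for the 29 imprinted genes tested, sorted by value; blue, maternally expressed, orange, paternally expressed, purple, both, squares, maternal H3K27me3, circles, DNA methylation, filled, adjusted p under 0.05. *Sfmbt2* (-1.39), *Slc38a4* (-1.23) and *Jade1* (-1.19) lie lowest and *Cdkn1c* (2.0) highest.

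Of the 6 genes imprinted through maternal H3K27me3, 3 were downregulated, against 4.2% of all genes tested. This count was 0 to 1 when any 1 library was left out, and 1 without the filter on low values or without the variance trend. All 6 passed the filter on low values. Their median log2 fold change was -0.73, beside -0.13 for the 23 genes of DNA methylation clusters that were tested and -0.04 for the 15 paternally expressed genes among those 23. The split by mark was chosen with earlier results of these data known, and the difference between these groups of genes was not tested.

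The promoters of these genes are shown first because the YY1 consensus GCCATNTT (on the other strand AANATGGC) was searched in them. RefSeq promoter windows (GRCm38.p6, 250 bases before to 50 bases after an annotated start, all alternative starts that the table gives) were at hand for 36 of the 44 genes, in 59 windows. The consensus was present on either strand in 5 of these 36 genes, namely *Sfmbt2*, *Jade1*, *Slc38a4*, *Gab1* and *Ube3a*. Among all 27025 genes with a window it was present in 6.96%, in 9.97% of the genes with 2 to 4 windows, and in 6.05% of the 32851 windows. By mark, it was present in 4 of the 5 genes imprinted through H3K27me3 that have a window and in 1 of 31 genes of DNA methylation clusters. Of the H3K27me3-imprinted genes that held it, 3 were downregulated, so mark and downregulation cannot be told apart in this count. Of the 4 downregulated imprinted genes, *Peg3* alone had no match in its window, and the control region within *Peg3* was not searched here. *Cdkn1c* and *Smoc1* had no window. A match is a description of these letters and was not tested as a binding site. The matches are printed 5′ to 3′ on the strand of the gene as 30 bases each, with the consensus in capitals.
Sfmbt2: atagagaggatGCCATATTggaatgaggct
Jade1, first site: cgagaggctcaGCCATATTtgatggttttg
Jade1, second site: agtacgtcattAATATGGCgccaaaagatt
Slc38a4: ttctgtcctggGCCATGTTttaccgagcgc
Gab1: tgggggttgtcAAGATGGCaaactcagtcg
Ube3a: agcccagtctcAAGATGGCgacgatgctgg

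Positions of the first capital letter are counted from the annotated start (1 is the first transcribed base and -1 the base before it). In *Sfmbt2* (chr2:10372434-10372463, plus strand) the consensus was at position 10 of 1 of its 2 starts, which lies 1926 bases inside the gene. In *Jade1* (chr3:41563647-41563676 and chr3:41563743-41563772, plus strand) both sites belonged to 1 of its 4 starts, 8020 bases inside the gene, at positions -93 and 4. In *Slc38a4* (chr15:97020514-97020543, minus strand) the consensus was at position -173 of 1 of its 3 starts, 35597 bases from the outer end of the gene. In *Gab1* (chr8:80880718-80880747, minus strand) and *Ube3a* (chr7:59228522-59228551, plus strand) it was at position -217 of the outermost start. In the 3 downregulated genes the matches thus lay at internal starts, and levels per gene do not tell which start was used. The shorter core GCCAT was present in 21 of the 36 imprinted genes. It was present in 44.2% of all genes and in 60.4% of the genes with 2 to 4 windows. The form AAGATGGC was present in 2 imprinted genes (*Gab1* and *Ube3a*). It was present in 3.19% of all genes and in 4.56% of the genes with 2 to 4 windows.

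*Sfmbt2*, a Polycomb-related gene needed in the trophoblast, is a plus-strand gene (chr2:10370510-10595253, GENCODE vM21, GRCm38, the assembly of mm10). Its level was 7.83, 8.79 and 16.4 TPM in control KD and 3.62, 3.61 and 2.90 TPM in *Yy1* KD libraries. The groups were apart, and control KD replicate 3 stood well above the other two control libraries. The mean went from 11.02 ± 4.72 to 3.37 ± 0.414 TPM (SD, n = 3 each), 3.27-fold lower, with a log2 fold change of -1.39 (SE 0.28, adjusted p = 0.0385 in limma). Without control KD replicate 3 the log2 fold change was -1.09 (limma adjusted p = 0.0741), and in all 6 fits that left out 1 library the adjusted p lay above the threshold, between 0.0705 and 0.105.

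*Slc38a4*, an amino acid transporter expressed in placenta and liver, is on the minus strand (chr15:96994820-97055956). It was at 9.48, 8.27 and 14.7 TPM in control KD and at 3.55, 4.91 and 3.36 TPM in *Yy1* KD libraries. Again every *Yy1* KD library was below every control KD library, and control KD replicate 3 was the highest. The mean fell from 10.8 ± 3.41 to 3.94 ± 0.844 TPM (SD, n = 3 each), 2.75-fold, with a log2 fold change of -1.23 (SE 0.24, adjusted p = 0.0375 in limma). Fits without 1 library gave an adjusted p between 0.0644 and 0.0989 and called it in 0 of 6 cases. Neither *Sfmbt2* nor *Slc38a4* shares exonic sequence with another annotated gene.

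*Jade1*, whose PHD finger protein takes part in HBO1 histone acetyltransferase complexes, is on the plus strand (chr3:41555731-41616864). It was at 38.3, 26.5 and 33.1 TPM in control KD and at 13.1, 13.9 and 13.9 TPM in *Yy1* KD libraries. The *Yy1* KD libraries were close together, at less than the lowest control library. The mean fell from 32.6 ± 5.89 to 13.6 ± 0.484 TPM (SD, n = 3 each), 2.39-fold, with a log2 fold change of -1.19 (SE 0.15, adjusted p = 0.0126 in limma). It was called in 5 of the 6 fits that left out 1 library, the exception being the fit without control KD replicate 3 (limma adjusted p = 0.0601). *Jade1* overlaps *Gm31266*, which was at 4.02 ± 1.65 and 2.14 ± 1.73 TPM (SD, n = 3 each) and with which read pairs can be shared.

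The other 3 genes of this kind did not pass the test. *Gab1* was at 54.3, 48.7 and 53.1 TPM in control KD and at 45.7, 43.4 and 39.5 TPM in *Yy1* KD libraries. The groups were apart, with a small difference (log2 fold change -0.27, SE 0.09, adjusted p = 0.131 in limma). *Smoc1*, which encodes a secreted calcium-binding protein, was at 7.75 ± 2.32 and 6.51 ± 1.41 TPM (SD, n = 3 each; log2 fold change -0.20, adjusted p = 0.678 in limma), with overlapping groups. *Zfp64*, which encodes a zinc finger protein, was at 8.99 ± 1.27 and 9.02 ± 0.627 TPM (SD, n = 3 each; log2 fold change 0.01, adjusted p = 0.979 in limma). *Gab1* thus held the YY1 consensus and was not called, and the window of *Zfp64* did not hold it.

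**Figure D2:**
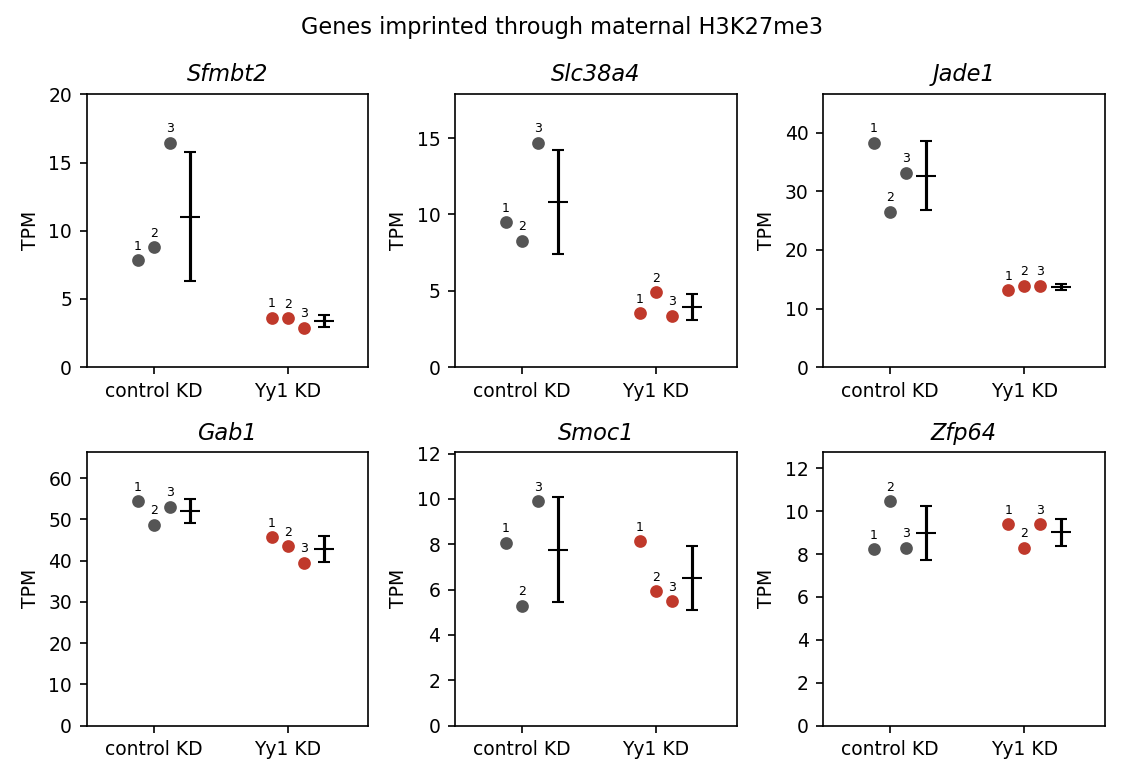
TPM (linear axis from 0) of the 6 genes imprinted through maternal H3K27me3; numbered points are libraries (grey, control KD; red, *Yy1* KD) and the bar beside them is the mean with its SD (n = 3). *Sfmbt2*, *Slc38a4*, *Jade1* and *Gab1* have groups that do not overlap, and those of *Smoc1* and *Zfp64* overlap.

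The machinery that writes H3K27me3 was followed beside these genes. Of 7 genes for Polycomb repressive complex 2 and its partners, 0 were called by limma, against 6.11% of all genes tested. The lowest adjusted p-values were those of *Eed* (89.7 and 110.4 TPM, limma adjusted p = 0.0804, higher in *Yy1* KD) and *Suz12* (434 and 342 TPM, limma adjusted p = 0.0785, lower). limma-voom on the recovered read pairs called both, among 894 higher and 1214 lower of the 17312 genes it tested. *Ezh2*, the catalytic subunit, was at 109 ± 3.92 and 108 ± 5.61 TPM (SD, n = 3 each; limma adjusted p = 0.908). Of 8 morula and blastocyst lineage markers, *Tfap2c*, a trophectoderm transcription factor, was downregulated, against 4.2% of all genes tested. It was at 192, 179 and 180 TPM in control KD and at 135, 116 and 125 TPM in *Yy1* KD libraries (log2 fold change -0.54, SE 0.08, adjusted p = 0.0174 in limma). *Sox2* (log2 fold change -0.86, adjusted p = 0.0942) and the cadherin gene *Cdh1* (log2 fold change -0.80, adjusted p = 0.125) were not called by limma, and limma-voom called *Cdh1*. *Cdx2*, another trophectoderm factor, was at 60.9 and 61.1 TPM (adjusted p = 0.995 in limma). *Gata6* was higher in every *Yy1* KD library (111 and 121 TPM, log2 fold change 0.12, limma adjusted p = 0.416). *Pou5f1*, *Nanog* and *Krt8* had log2 fold changes of -0.06, -0.22 and -0.45 and were not called. The median log2 fold change of the 8 markers was -0.34. Whether *Tfap2c* or the other lineage markers have a part in the values of the H3K27me3-imprinted genes was not tested.

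*Peg3* was the 1 downregulated gene with DNA methylation as its mark. *Peg3* encodes a zinc finger protein, is paternally expressed, and is on the minus strand (chr7:6703892-6730431). Its level was 9.24, 7.25 and 7.51 TPM in control KD and 4.46, 4.21 and 3.54 TPM in *Yy1* KD libraries. Every *Yy1* KD library was below every control KD library. The mean went from 8.0 ± 1.08 to 4.07 ± 0.473 TPM (SD, n = 3 each), 1.97-fold lower (log2 fold change -0.83, SE 0.17, adjusted p = 0.0408 in limma). It was past the threshold in 0 of the 6 fits that left out 1 library (limma adjusted p between 0.0813 and 0.123), and not with quantile normalization (limma adjusted p = 0.0567).

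*Usp29*, a paternally expressed ubiquitin-specific protease gene that starts next to *Peg3* on the other strand, was at 1.78, 1.49 and 1.77 TPM in control KD and at 1.15, 1.24 and 1.26 TPM in *Yy1* KD libraries. The groups were apart and the gene was not called (log2 fold change -0.28, SE 0.21, adjusted p = 0.478 in limma). *Usp29* shares exonic sequence with *Zim3*, which was at 5.88 and 4.09 TPM (limma adjusted p = 0.149). *Zim1*, the maternally expressed zinc finger gene of this cluster, had at most 5 read pairs in any library, so that a difference was not detectable at this depth.

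*Cdkn1c* encodes the CDK inhibitor p57, is maternally expressed, and is on the minus strand (chr7:143458339-143461050). It was at 3.03, 4.76 and 2.96 TPM in control KD and at 13.7, 27.8 and 12.7 TPM in *Yy1* KD libraries. The lowest *Yy1* KD library was well above the highest control KD library. The mean rose from 3.58 ± 1.02 to 18.1 ± 8.41 TPM (SD, n = 3 each), 5.05-fold, with a log2 fold change of 2.0 (SE 0.32, adjusted p = 0.0227 in limma). The call was lost without control KD replicate 1, 2 or 3 (limma adjusted p = 0.0773, 0.0523 and 0.0831) and without *Yy1* KD replicate 1 (0.05004). Without *Yy1* KD replicate 2, the highest library, the log2 fold change was 1.66 (limma adjusted p = 0.0456). *Cdkn1c* overlaps *Gm44732*, which went from 2.55 ± 1.25 to 21.5 ± 10.8 TPM (SD, n = 3 each; limma adjusted p = 0.0194), and read pairs that fit both were divided between them without regard to strand.

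Of the other 3 listed imprinted genes of this cluster, *Kcnq1ot1* was tested and not called, and *Phlda2* and *Slc22a18* were not tested. *Kcnq1ot1*, the paternally expressed noncoding RNA that silences this cluster in cis, was at 1.33, 0.846 and 1.90 TPM in control KD and at 1.14, 0.499 and 1.40 TPM in *Yy1* KD libraries. The groups overlapped (log2 fold change -0.23, SE 0.30, adjusted p = 0.691 in limma). *Kcnq1ot1* shares exonic sequence with *Kcnq1*. *Phlda2*, a maternally expressed gene that restrains placental growth, had 2, 27 and 18 read pairs in control KD and 0, 0 and 0 in *Yy1* KD libraries. With 3 pairs as the upper limit that 0 pairs allow over the *Yy1* KD group, and with the control count taken as exact, its share of read pairs on genes was at least 12.3-fold lower. This value covers counting error in the *Yy1* KD group alone and rests on 2 control libraries. *Phlda2* was below the filter, and without the filter it did not pass the test (limma adjusted p = 0.208). *Slc22a18*, an organic cation transporter gene, had no read pair in any library. *Tssc4*, a further gene of this region, was at 6.89 ± 1.80 and 12.4 ± 1.91 TPM (SD, n = 3 each; log2 fold change 0.78, adjusted p = 0.0828 in limma) with groups that were apart, and was called by limma-voom on the recovered read pairs.

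**Figure D3:**
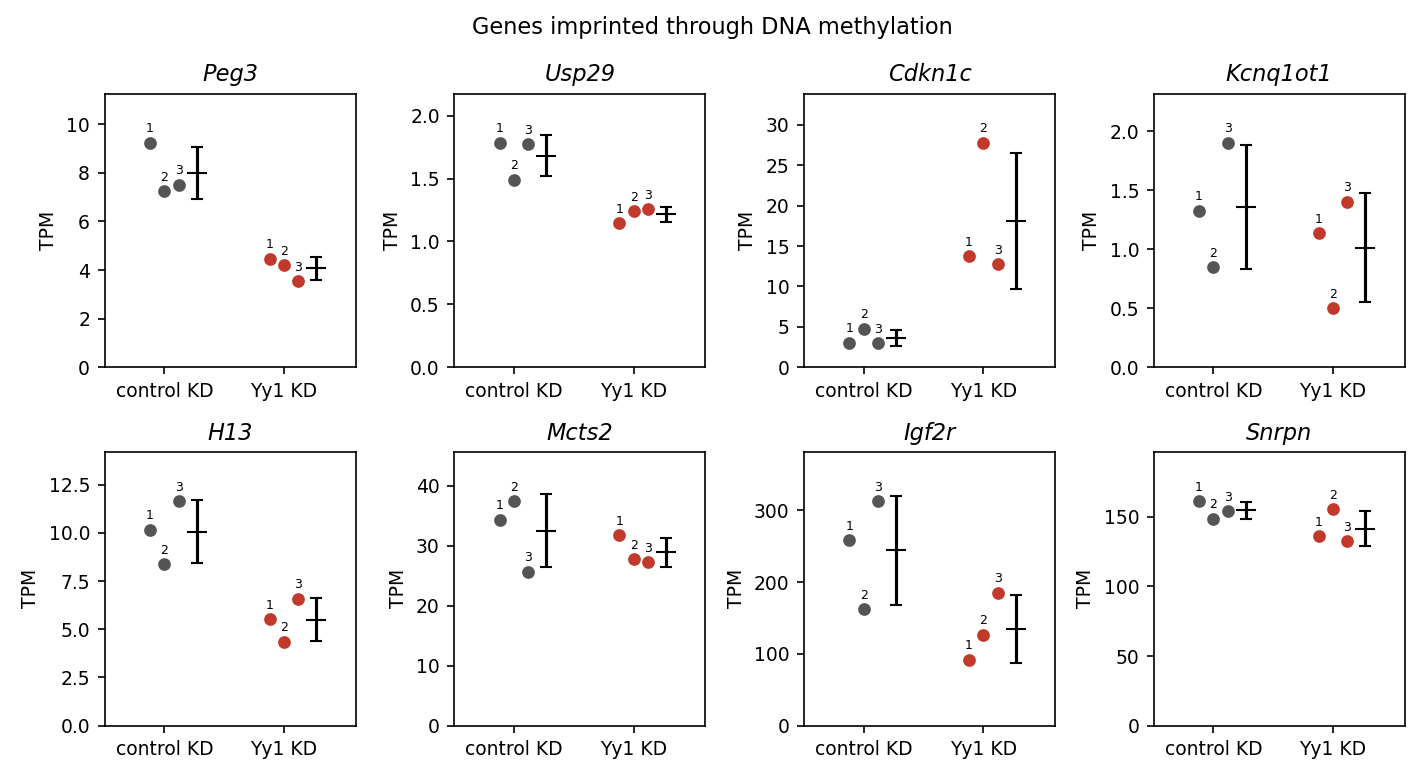
TPM (linear axis from 0) of 8 genes of DNA methylation clusters; numbered points are libraries (grey, control KD; red, *Yy1* KD) and the bar beside them is the mean with its SD (n = 3). *Peg3*, *Usp29*, *Cdkn1c* and *H13* have groups that do not overlap, and those of *Kcnq1ot1*, *Mcts2*, *Igf2r* and *Snrpn* overlap.

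*Igf2r* and *Igf2* encode a receptor and its ligand and are expressed from opposite parental copies. *Igf2r* was at 259, 162 and 312 TPM in control KD and at 91.7, 127 and 185 TPM in *Yy1* KD libraries. Control KD replicate 2 lay below *Yy1* KD replicate 3, so that the groups overlapped, and the gene was not called (log2 fold change -0.86, SE 0.31, adjusted p = 0.157 in limma), although limma-voom on the recovered read pairs called it (adjusted p = 0.0394). *Airn*, the paternally expressed antisense RNA of this locus, was at or under 0.568 TPM in each library. *Igf2* was at 1.11, 1.11 and 1.01 TPM in control KD and at 2.16, 2.002 and 2.29 TPM in *Yy1* KD libraries. Every *Yy1* KD library was higher in TPM. Before scaling for depth these were 33, 65.5 and 43 read pairs in control KD and 95.5, 63 and 65 in *Yy1* KD libraries (pairs shared with another gene count in parts). Control KD replicate 2 was the deepest library. Per 1000000 pairs on genes the values were 2.64, 2.68 and 2.37 in control KD and 5.11, 4.90 and 5.51 in *Yy1* KD libraries. The log2 fold change on the TPM + 1 scale, which understates a change at this level, was 0.60 (SE 0.20, adjusted p = 0.134 in limma), and limma-voom gave 1.03 (adjusted p = 0.0285). *H19*, the maternally expressed RNA next to *Igf2*, had between 0 and 6.5 read pairs per library.

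At the *Gnas* cluster, *Gnas*, which encodes the stimulatory G protein alpha subunit, was at 25.9, 24.6 and 24.5 TPM in control KD and at 22.5, 21.1 and 21.2 TPM in *Yy1* KD libraries. The groups were apart by a small amount (log2 fold change -0.20, SE 0.09, adjusted p = 0.229 in limma). The paternally expressed antisense RNA *Nespas* was at 3.98, 2.43 and 4.99 TPM in control KD and at 1.38, 0.579 and 2.25 TPM in *Yy1* KD libraries, with groups that were apart (log2 fold change -1.02, SE 0.35, adjusted p = 0.135 in limma). The 2 genes share exonic sequence on opposite strands, and strand was ignored in the counting, so their read pairs cannot be fully told apart.

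At the *Dlk1*-*Meg3* cluster, the maternally expressed noncoding RNAs *Meg3* and *Rian* were low and below the filter. *Meg3* was at 1.45, 0.468 and 2.40 TPM (136, 87.5 and 324 read pairs) in control KD and at 0.232, 0.342 and 0.463 TPM (32.5, 34 and 41.5 read pairs) in *Yy1* KD libraries. The groups were apart, by a narrow margin between control KD replicate 2 and *Yy1* KD replicate 3. *Rian*, a host of small nucleolar RNAs, was at 1.96, 0.962 and 2.80 TPM in control KD and at 0.523, 0.452 and 0.997 TPM in *Yy1* KD libraries, with overlapping groups. When limma-voom was run on all genes with at least 10 read pairs in at least 3 libraries, the log2 fold change was -1.70 for *Meg3* (standard error 0.66, adjusted p = 0.115) and -1.41 for *Rian* (standard error 0.43, adjusted p = 0.0519). *Dlk1*, the paternally expressed ligand gene of this cluster, had at most 9 read pairs in any library. *Meg3* and *Rian* were singled out after their values had been seen, as were *Igf2*, *Nespas*, *H13* and *Tssc4*.

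**Figure D4:**
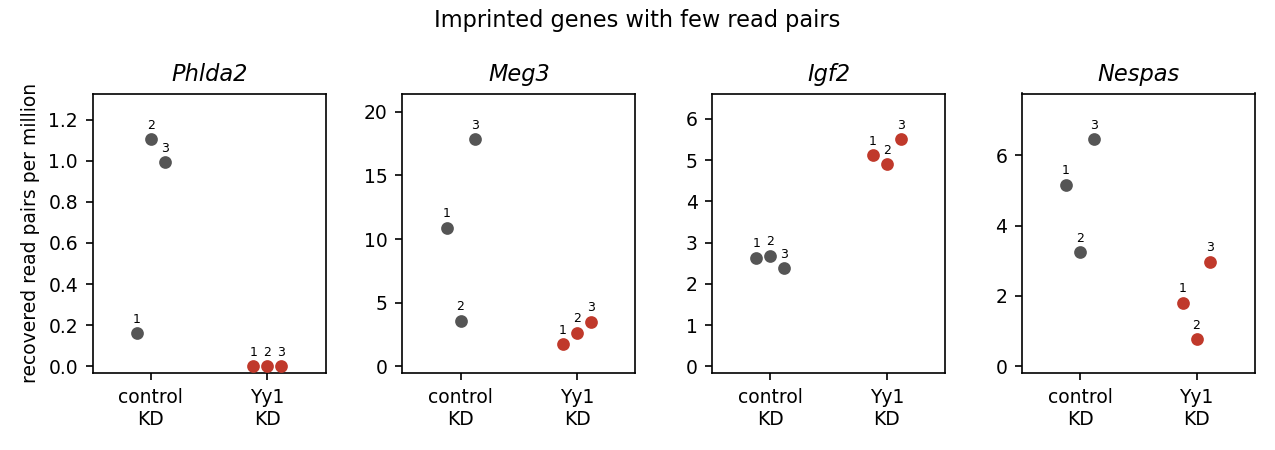
Recovered read pairs per 1000000 pairs on genes (linear axis) of *Phlda2*, *Meg3*, *Igf2* and *Nespas*; numbered points are libraries (grey, control KD; red, *Yy1* KD). *Phlda2* has no read pair in the *Yy1* KD libraries, *Igf2* is higher in each *Yy1* KD library, and *Meg3* and *Nespas* are lower in each.

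*H13*, which encodes a signal peptide peptidase, and *Mcts2*, a retrogene within one of its introns, are listed as expressed from opposite parental copies. For *H13* imprinting is listed as limited to some tissues or stages, and it was not measured in these embryos. *H13* was at 10.2, 8.38 and 11.6 TPM in control KD and at 5.51, 4.36 and 6.59 TPM in *Yy1* KD libraries. The groups were apart, and the adjusted p was just above the threshold (log2 fold change -0.77, SE 0.19, adjusted p = 0.0669 in limma), with a call by limma-voom (adjusted p = 0.00957). *Mcts2* was at 34.3, 37.4 and 25.6 TPM in control KD and at 31.7, 27.7 and 27.2 TPM in *Yy1* KD libraries, with overlapping groups (limma adjusted p = 0.611). The ratio of *H13* to *Mcts2* was 0.297, 0.224 and 0.454 in control KD and 0.174, 0.157 and 0.242 in *Yy1* KD libraries (two-sided exact permutation test on the log2 ratio, p = 0.2, adjusted p = 0.4 over the 2 pairs that could be compared). *Commd1*, whose imprinting is also listed as limited, and the retrogene *Zrsr1* within it were the other pair. They share exonic sequence and strand was ignored in the counting, so their read pairs cannot be fully told apart. The ratio of *Commd1* to *Zrsr1* was between 0.477 and 0.664 in control KD and between 0.442 and 0.578 in *Yy1* KD libraries (exact permutation p = 0.4, adjusted p = 0.4). With 3 libraries in each group this test cannot give a p below 0.1.

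The remaining genes with a mean of at least 10 TPM showed small differences. *Snrpn* was at 161, 149 and 154 TPM in control KD and at 136, 156 and 132 TPM in *Yy1* KD libraries (log2 fold change -0.13, adjusted p = 0.404 in limma). *Impact*, an inhibitor of the kinase GCN2, was at 27.5, 28.1 and 25.8 TPM in control KD and at 29.0, 27.4 and 26.8 TPM in *Yy1* KD libraries (log2 fold change 0.03, adjusted p = 0.872 in limma). *Zrsr1*, a relative of the splicing factor U2AF, was at 11.4, 9.91 and 13.6 TPM in control KD and at 10.8, 12.5 and 10.3 TPM in *Yy1* KD libraries (log2 fold change -0.04, adjusted p = 0.897 in limma). The groups of these 3 genes overlapped. Through shared exonic sequence, read pairs of *Snrpn* can be divided with *Snurf* and those of *Zrsr1* with *Commd1*. *Ube3a*, an E3 ubiquitin ligase whose imprinting is limited to neurons, was at 16.7, 18.5 and 17.8 TPM in control KD and at 17.3, 11.2 and 12.3 TPM in *Yy1* KD libraries. *Yy1* KD replicate 1 lay among the control libraries, and the gene was not called (log2 fold change -0.37, adjusted p = 0.241 in limma).

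The other 9 genes tested were *Peg10*, *Sgce*, *Mest*, *Copg2*, *Grb10*, *Ddc*, *Zdbf2*, *Commd1* and *Inpp5f*, with means over the 6 libraries between 0.995 and 6.01 TPM. Of these, *Peg10* (0.659 ± 0.394 and 1.33 ± 0.356 TPM, SD, n = 3 each) and *Ddc* were higher in every *Yy1* KD library, *Copg2* and *Commd1* were lower in every one, and the other 5 had overlapping groups. *Peg10* reached 1 TPM in the *Yy1* KD libraries alone and so was tested through the group where it is high. Their limma adjusted p-values lay between 0.341 and 0.881. *Peg10*, derived from a retrotransposon, and its neighbour *Sgce*, which encodes epsilon-sarcoglycan, start next to each other on opposite strands. *Copg2* shares exonic sequence with *Mest*, and *Commd1* with *Zrsr1*, so read pairs can be shared within each of these pairs.

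By parental copy, 4 of the 21 paternally expressed genes tested were downregulated, against 4.2% of all genes tested, and 0 were upregulated, against 1.92%. limma-voom called the same 4 lower and *Igf2* higher, among 894 higher and 1214 lower of the 17312 genes it tested. Of these 4, 3 are imprinted through maternal H3K27me3 and were counted under that mark above. Among the 15 paternally expressed genes tested from DNA methylation clusters, limma called 1 lower (6.67%), against 4.2% of all genes tested. Of the 7 maternally expressed genes tested, *Cdkn1c* was upregulated, against 1.92% of all genes tested, and 0 were downregulated, against 4.2%. In these 7, limma-voom called *Cdkn1c* higher and *Igf2r* and *H13* lower. The median log2 fold change was -0.13 for paternally and -0.23 for maternally expressed genes. Both parental groups thus held genes with lower and with higher values in *Yy1* KD morulae. For 14 of the 29 genes tested, imprinting is listed as limited to some tissues or stages. These include *Copg2*, *Grb10*, *H13*, *Commd1* and *Ube3a* among the maternally expressed genes, and 3 of the 4 downregulated genes.

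Genes that act on imprints and further imprinted genes were listed in addition. Of 8 genes that maintain imprints, *Zfp445*, which encodes a zinc finger protein that binds methylated control regions, was downregulated (1 of 8, against 4.2% of all genes tested). It was at 44.7, 40.4 and 49.3 TPM in control KD and at 26.98, 24.3 and 27.5 TPM in *Yy1* KD libraries, with groups well apart (log2 fold change -0.75, SE 0.11, adjusted p = 0.0162 in limma). *Zfp57*, its partner in this role, was at 12.1 ± 2.31 and 13.7 ± 0.722 TPM (SD, n = 3 each; limma adjusted p = 0.559). *Trim28* (463 and 511 TPM, higher in every *Yy1* KD library), *Dnmt1* (33.2 and 36.1 TPM), *Setdb1*, *Dppa3* and *Ctcf* were not called either. *Uhrf1*, which guides DNMT1 to newly copied DNA, was at 45.6 ± 6.48 and 34.8 ± 4.19 TPM (SD, n = 3 each), with groups that were apart, and did not pass the test (adjusted p = 0.151 in limma). The hexamer TGCCGC that ZFP57 recognizes when methylated (on the other strand GCGGCA) was present in the promoter windows of 13 of the 36 imprinted genes, all of them from DNA methylation clusters, against 13.1% of all genes and 22.7% of the genes with 2 to 4 windows. None of the 4 downregulated genes was among these 13, and windows at start sites cover only part of the control regions.

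Of 40 further imprinted genes, 39 were in the table and 16 were tested. 1 of the 16 was called, a share near the 6.11% of all genes tested that were called. It was *Casd1*, a sialic acid acetyltransferase gene close to *Sgce*. *Casd1* was at 1.82, 1.85 and 2.52 TPM in control KD and at 0.416, 0.0450 and 0.400 TPM in *Yy1* KD libraries. It reached 1 TPM in the control KD libraries alone, so that it entered the test through the group where it is high (log2 fold change -1.26, SE 0.26, adjusted p = 0.0408 in limma). Over the 16 genes the median log2 fold change was -0.08. The consensus GCCATNTT was not found in the promoter windows of *Zfp445* or *Casd1*.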

How the data were processed

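Groups and replicate numbers were taken from the labels. The authors trimmed the reads with Trim Galore (version 0.6.7), aligned them to mm10 with HISAT2 (version 2.2.1), removed ribosomal RNA reads with bedtools, counted read pairs per gene of GENCODE vM25 with featureCounts (version 2.0.1, pairs on several genes divided, strand ignored) and deposited TPM. Since TPM is scaled to a fixed sum, a gene's value depends on all others. limma (version 3.58.1, R 4.3.3) was fitted here to log2(TPM + 1) with a variance trend, and was checked on simulated data. Single values were compared with two-sided exact permutation tests. Positions, exon lengths and overlaps came from GENCODE vM21 (GRCm38), which matched 55104 of 55364 identifiers. 39 of the 44 imprinted genes had the same version. In genes of the same version without exonic overlap, 89.0% to 90.9% of values under 20 pairs came out whole (within 0.02). The floor for *Phlda2* covers counting error in the *Yy1* KD group only. The labels do not say whether libraries came from separate cultures, so p-values measure the spread between these libraries.

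The imprinted genes, their split and all lists were chosen with earlier results of these data known. Values in every library were given for imprinted genes called or at a mean TPM of at least 10 and for partners at the locus of a called gene. Others were chosen after their values were seen. Alternatives were limma-voom on recovered read pairs, each library left out in turn, quantile normalization, scaling by median ratios, a replicate block, library weights, robust variances or no variance trend, a pseudocount of 0.1, no filter or one at a mean of 5 TPM, and only genes without exonic overlap. limma-voom on genes with at least 10 pairs in 3 libraries was added after seeing the data. 0 columns of values per library were left unused. Python 3.11.15 was used with scipy 1.17.1, numpy 2.4.6, pandas 2.3.3 and, for the plots, matplotlib 3.10.9.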

Additional observations from a re-analysis of the deposited data

How the results depend on the processing

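The direction of *Sfmbt2*, *Slc38a4*, *Jade1*, *Peg3*, *Cdkn1c* and *Yy1* was kept in every alternative in which each was tested, and *Yy1* was called in all of them. Over all genes tested, 333 higher and 728 lower genes became 77 and 270 without the filter, 132 and 382 without the variance trend, 213 and 412 among genes without exonic overlap (10844 tested), 894 and 1214 with limma-voom on recovered read pairs, and 920 and 1230 with its wider filter. Leaving out 1 library gave 23 to 81 higher and 50 to 335 lower genes. Among imprinted genes, leaving out 1 library called 0 to 1 higher and 0 to 1 lower, the latter *Jade1*, and 0 to 1 of the H3K27me3-imprinted genes. Without the filter 0 higher (*Cdkn1c*, limma adjusted p = 0.0584) and 1 lower (*Jade1*, the 1 H3K27me3-imprinted gene) were called. Without the variance trend 2 higher (*Cdkn1c*, *Igf2*) and 2 lower (*Jade1*, *Peg3*) were called, so 1 H3K27me3-imprinted gene. limma-voom called 2 higher (*Cdkn1c*, *Igf2*) and 6 lower (*H13*, *Igf2r* and the same 4) with either filter. Among genes without exonic overlap, a set without *Cdkn1c* and *Jade1*, 0 higher and 3 lower were called. The cause of these differences was not tested, apart from the genes and libraries left out.

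The replicate block gave 69 higher and 218 lower genes over all genes and, among imprinted genes, *Cdkn1c* higher and 1 lower, *Jade1*, the 1 H3K27me3-imprinted gene. Deviations of same-numbered libraries correlated at -0.00388, 0.0319 and 0.0747, and those of differently numbered libraries at -0.0713 to 0.0411. These values cannot tell whether same-numbered libraries were prepared together, and the labels do not say.

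The median log2 fold change of imprinted genes, -0.19, was -0.11 without the filter, with quantile normalization and with limma-voom with either filter, -0.0695 among genes without exonic overlap, and -0.26 to -0.11 without 1 library. The sign turned for values near 0. The median of paternally expressed genes was 0.00595 without the filter. *Zrsr1* was at 0.0383 with quantile normalization and at 0.00172 and 0.00176 with limma-voom. Without 1 library *Zrsr1* ranged from -0.145 to 0.0637, *Grb10* from -0.0231 to 0.231, *Impact* from -0.00373 to 0.0554, *Zfp64* from -0.0440 to 0.112 and *Zdbf2* from -0.347 to 0.141.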
